A study of Mus musculus with 2 samples.

Results

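Endothelial cells, the cells that line blood and lymph vessels, were described in the embryonic day 14.5 mouse pancreas by single-cell RNA sequencing. They were chosen by rule from 2 libraries: a barcode needed at least 2000 UMIs (unique molecular identifiers, each counting 1 captured RNA molecule) and less than 10% of its UMIs on mitochondrially encoded genes. It also needed at least 3 of the endothelial genes Pecam1, Cdh5, Kdr, Egfl7, Esam, Tie1 and Plvap with a summed count of at least 6, at most 2 UMIs of the epithelial genes Epcam and Cdh1, and at most 2 UMIs of the macrophage genes C1qa, C1qb and C1qc. The rule found 304 barcodes among 24312 that passed the depth and mitochondrial filters and 46917 in all. The Null library held 149 of them and pooled 3 pancreata from 3 litters with genotype Fgf9 -/-, in which a LacZ cassette in the Fgf9 locus makes the gene non-functional. The Control library held 155 and pooled 8 littermate pancreata from 3 litters with genotypes Fgf9 +/+ and +/-. All mice were kept on a C57BL/6J background, and both libraries came from whole pancreas dissociated with TrypLE and sorted as DAPI-negative live cells. Each group is 1 library, so no difference between the groups has a replicate check, no test was possible and no p-value is given. Intervals are 95% intervals that cover counting error only, and a gene is called higher or lower here only where that interval of its ratio excludes 0 on the log2 scale.

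Fgf9 encodes a secreted fibroblast growth factor. Endothelial cells read the growth factor VEGF through Kdr and Flt1, are held together by the cadherin Cdh5 and the claudin Cldn5, and differentiate into arterial, capillary, venous and lymphatic types. Arterial fate is known to depend on Notch signaling and Sox17, venous fate on Nr2f2 and lymphatic fate on Prox1. In the developing pancreas, endothelium is known as a source of signals to the epithelium.

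The barcodes carried endothelial genes that the rule did not use. Cldn5, a tight junction protein of vessels, stood at 478 CPM (counts per 1e6 of the group's summed UMIs) in Null and 475 CPM in Control endothelial barcodes, against 1.11 and 2.87 CPM in all other barcodes of those libraries. Emcn, a sialomucin of capillaries and veins, stood at 444 CPM in Null and 452 CPM in Control. Cd34, a surface sialomucin, had 584 CPM in Null and 458 CPM in Control, and Erg, an ETS transcription factor of endothelium, 78.6 and 64.6 CPM. Because the rule picked cells by endothelial genes, these levels describe the selection and were not tested. Of 8630 genes with at least 50 UMIs over both libraries' endothelial barcodes, 537 (6.22%) stood at least 4-fold above the other barcodes in both libraries, among them 17 of 20 measured endothelial transcription factors and 21 of 22 junction and surface proteins.

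For 4 of the genes that describe these cells, the 250 bases before the annotated start are printed to show what was searched: Robo4, Emcn and Cd34, surface proteins of endothelium, and Gja4, a gap junction protein of arteries. The sequences are RefSeq's on build GRCm38.p6, read 5′ to 3′ on the gene's strand at chr9:37401722-37401971 (Robo4, plus), chr3:137340828-137341077 (Emcn, plus), chr1:194938571-194938820 (Cd34, plus) and chr4:127314040-127314289 (Gja4, minus). Capitals mark matches to CNGGAAG on either strand, letters that ETS factors such as Erg are known to favor.
Robo4: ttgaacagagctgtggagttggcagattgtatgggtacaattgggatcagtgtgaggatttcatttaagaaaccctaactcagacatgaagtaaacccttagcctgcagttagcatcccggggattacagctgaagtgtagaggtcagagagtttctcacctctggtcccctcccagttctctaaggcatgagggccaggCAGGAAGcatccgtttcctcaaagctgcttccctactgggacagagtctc
Emcn: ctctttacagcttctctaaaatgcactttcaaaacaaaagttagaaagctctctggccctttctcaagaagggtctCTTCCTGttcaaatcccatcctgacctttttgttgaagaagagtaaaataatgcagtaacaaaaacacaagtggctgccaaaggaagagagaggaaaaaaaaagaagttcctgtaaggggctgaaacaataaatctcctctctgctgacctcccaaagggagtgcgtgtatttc
Cd34: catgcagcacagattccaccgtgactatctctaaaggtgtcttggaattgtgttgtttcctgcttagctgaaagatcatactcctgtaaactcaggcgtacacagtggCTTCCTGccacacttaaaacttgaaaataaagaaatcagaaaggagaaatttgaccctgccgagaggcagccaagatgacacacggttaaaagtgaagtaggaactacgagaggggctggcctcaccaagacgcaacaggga
Gja4: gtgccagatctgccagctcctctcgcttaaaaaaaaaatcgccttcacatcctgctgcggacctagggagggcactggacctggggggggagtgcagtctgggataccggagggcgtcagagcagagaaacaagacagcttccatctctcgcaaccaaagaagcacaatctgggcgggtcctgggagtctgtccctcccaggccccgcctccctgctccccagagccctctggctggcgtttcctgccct
Robo4, Emcn and Cd34 held 1 match each and Gja4 none. Of the 537 endothelial genes, 391 matched the RefSeq table by symbol, with 538 start windows. A match stood in 170 windows (31.6%), against 34.6% of the 8822 windows of all measured genes and 26.6% of all 32851 windows. Their share before endothelial genes was therefore not above that before all measured genes. The letters ACAAAG, favored by SOX factors such as Sox17, stood on either strand in 13.6% of the endothelial windows, against 11.6% and 16.5%. Both motifs end in AAG, and a match is a description of sequence, not of binding.

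Depth differed between the libraries, and part of the barcodes went against their label. The Null barcodes had a median of 22132 UMIs (2042 to 72276) and 4852 genes, the Control barcodes a median of 14646 UMIs (2143 to 36569) and 3911 genes. Summed without mitochondrial and haemoglobin genes, they held 3484607 UMIs in the Null and 2322152 UMIs in the Control library, so 1 UMI was worth 0.287 CPM in the Null and 0.431 CPM in the Control library. In 15 Null and 13 Control barcodes, the fibrillar collagens Col1a1, Col1a2 and Col3a1 together took at least 5 of every 10000 UMIs. Their median collagen level was 68.4 in the Null and 17.2 in the Control library per 10000 UMIs, while no other endothelial barcode passed 2.90 in the Null or 2.51 in the Control library. The 15 Null barcodes had a median of 8 UMIs of the selection genes and Pecam1 at 41.5 CPM, against 658 CPM in the other 134 Null barcodes. The 13 Control barcodes had a median of 49 and Pecam1 at 314 CPM, against 511 CPM in the other 142 Control barcodes. These collagen-rich barcodes were kept because the rule keeps them, and the results that they moved most are given with and without them.

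**Figure D1:**
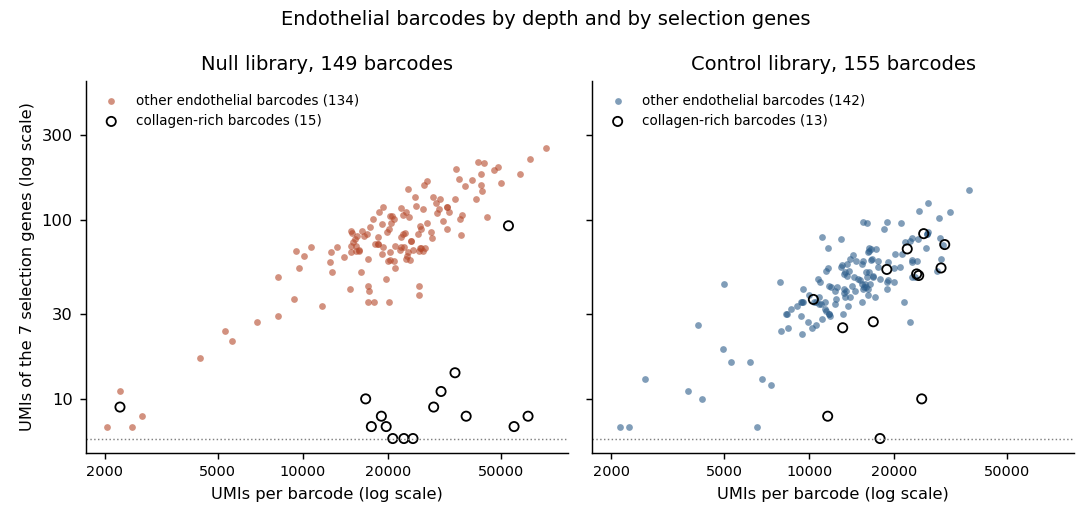
UMIs per barcode (x axis, log scale) against the summed UMIs of the 7 selection genes (y axis, log scale) for the 149 Null (left) and 155 Control (right) endothelial barcodes; open circles are collagen-rich barcodes and the dotted line is the rule's minimum of 6. Most of the 15 collagen-rich Null barcodes lie along the lower edge, while most of the 13 collagen-rich Control barcodes lie among the others.

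Around the rule's minimum the barcodes were mixed. In the Null library, 9 of the 12 barcodes with 6 to 8 UMIs of the selection genes were collagen-rich, and 11 of the 13 just outside it with 3 to 5 UMIs. In the Control library these numbers were 2 of 5 inside and 8 of 16 outside. The rule's limit on Epcam and Cdh1 alone kept out 32 Null and 113 Control barcodes, whose median depths were 52587 and 26528 UMIs.

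Other signs of foreign RNA differed between the libraries. RNA of acinar cells, the enzyme-making cells of the pancreas, stood at 1314 CPM in Null and 2341 CPM in Control endothelial barcodes over the whole list of 17 enzyme genes, and all 10 measured enzymes were lower in the Null library, with a median log2 ratio of -0.96. Set against barcodes under 1000 UMIs, these enzymes put free RNA at 4.29% of endothelial UMIs in the Null and 13.6% in the Control library. The references were unlike: 6282 Null barcodes with the enzymes at 30607 CPM, and 244 Control barcodes with them at 17250 CPM. The gap between the 2 estimates depends on these references. Epithelial genes summed to 201 CPM in Null and 383 CPM in Control, and 6 of 7 measured members were lower. Mesenchymal genes summed to 1377 CPM in Null and 667 CPM in Control, and to 64.6 and 117 CPM without the collagen-rich barcodes. Mural genes, those of pericytes and smooth muscle, summed to 110 CPM in Null and 85.7 CPM in Control, and to 25.2 and 32.0 CPM without them. Mesothelial genes, those of the organ's outer covering, summed to 94.7 CPM in Null and 15.9 CPM in Control, and to 13.8 and 10.7 CPM without them. Hormone and other genes of endocrine cells summed to 1073 CPM in Null and 636 CPM in Control, or 1196 and 666 CPM without collagen-rich barcodes. Ins1 made up 307 CPM of that in Null and 53.4 CPM in Control, and of the 8 measured members 2 had intervals above 0 and 3 below. Neural genes summed to 136 CPM in Null and 135 CPM in Control, and to 88.5 and 149 CPM without the collagen-rich barcodes. No member of the macrophage, erythroid or platelet lists reached 50 UMIs. A doublet caller marked 4 Null and 10 Control endothelial barcodes, of which 2 and 7 were collagen-rich. Fgf9 had no UMI in the endothelial barcodes of either library, which allows up to 0.861 CPM in the Null and 1.29 CPM in the Control library, so these cells give no check of the allele. Xist, expressed from the silenced X chromosome of female cells, had a UMI in 0 of 149 Null barcodes and 86 of 155 Control barcodes, so sex and genotype cannot be told apart. The libraries shared 180 cell barcodes, none of them endothelial in both. The part of these differences in the results below was not tested, apart from the values given without collagen-rich barcodes or with free RNA subtracted.

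Endothelial barcodes made up 1.86% (1.58 to 2.18, exact Clopper-Pearson interval) of the 7998 Null barcodes past the filters and 0.950% (0.807 to 1.11) of the 16314 Control barcodes. Without collagen-rich barcodes the shares were 1.68% in the Null and 0.870% in the Control library. The rule's limit on epithelial UMIs is stricter for deeper barcodes. When each barcode was judged after thinning to 5000 UMIs, the rule found 142 Null barcodes (1.78%) and 204 Control barcodes (1.25%), so the difference between the shares was smaller. Sorting, dissociation and the number of other barcodes that pass the filters can also set such shares, and their part was not tested.

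Clustering of the 304 barcodes gave 9 subclusters, which describe how the endothelium varied. The genes that lead a subcluster are those that made it and are given as description. Subcluster 1 (33 Null and 21 Control barcodes) was arterial-like and led by Hey1, a Notch target, Esm1, secreted by sprouting tip cells, the netrin receptor Unc5b and Gja4, with the arterial list at 2855 CPM and the tip cell list at 2224 CPM. Subcluster 7 (7 Null and 3 Control) was arterial-like with genes of the elastic artery wall: Gkn3, Mgp, Fbln5 and Eln led it, and the arterial list reached 5308 CPM. Gja4 stood there at 1155 CPM and Gja5, the other arterial gap junction gene, at 435 CPM, against 537 and 69.4 CPM in subcluster 1.

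Subcluster 5 (21 Null and 10 Control) was venous-like, with capillary genes as well. The venous list stood at 1576 CPM, but nearly as high in subcluster 8, at 1516 CPM. Nr2f2 stood at 328 CPM. Vwf, the blood clotting factor of veins and large vessels, stood at 275 CPM, but higher still in subcluster 7, at 472 CPM. The capillary and transcytosis list was highest in subcluster 5, at 4193 CPM, with subcluster 3 next at 2990 CPM. The fatty acid carriers Fabp4, at 1385 CPM, and Cd36, at 234 CPM, were also highest in subcluster 5. Subcluster 8 (6 Null and 3 Control) was lymphatic-like: Ccl21a, the chemokine of lymphatic vessels, stood at 4326 CPM, the hyaluronan receptor Lyve1 at 1171 CPM and Prox1 at 513 CPM. Emcn marked the capillary and venous side, with 794 CPM in subcluster 5 but 24.8 CPM in subcluster 7 and 50.2 CPM in subcluster 8.

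Subclusters 2 (36 Null and 15 Control) and 3 (5 Null and 29 Control) were led by genes of dividing cells, mitotic genes such as Nusap1, Hmmr and Cenpf in the first and histone and replication genes such as Hist1h1a and Rfc4 in the second. Mki67, a marker of dividing cells, stood at 551 CPM in subcluster 2, at 266 CPM in subcluster 3 and at 677 CPM in the artery-wall subcluster 7, against 12.4 CPM in subcluster 1. In subcluster 7, cell cycle genes were high in few barcodes. After thinning to 2000 UMIs they had 45 UMIs in a Null barcode of 40829 UMIs and 25 in a Control barcode of 16184 UMIs. The remaining barcodes of subcluster 7 had at most 10. Subcluster 6 (14 Null and 13 Control) held 27 collagen-rich barcodes and was led by Upk3b, Sfrp1 and Col1a2. Its Null and Control members were unlike. Mesothelial genes stood at 667 CPM in the Null and 58.2 CPM in the Control members. Upk3b had 130 Null and 2 Control UMIs over all endothelial barcodes. At a higher clustering resolution, subcluster 6 split into a set of 10 Null barcodes and a set of 4 Null and 13 Control barcodes. Subcluster 4 (4 Null and 28 Control) was led by Rbp4, Bex1 and Spp1 and had no endothelial name. It carried endocrine genes at 9475 CPM, with 60973 CPM in the 4 Null and 1576 CPM in the 28 Control barcodes. Of its 982 Ins1 UMIs, 950 came from the 4 Null barcodes. Subcluster 0 (23 Null and 33 Control) showed no leading vessel type. Since the genes that differ between the libraries also made the subclusters, their sizes are not read as a difference between groups.

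**Figure D2:**
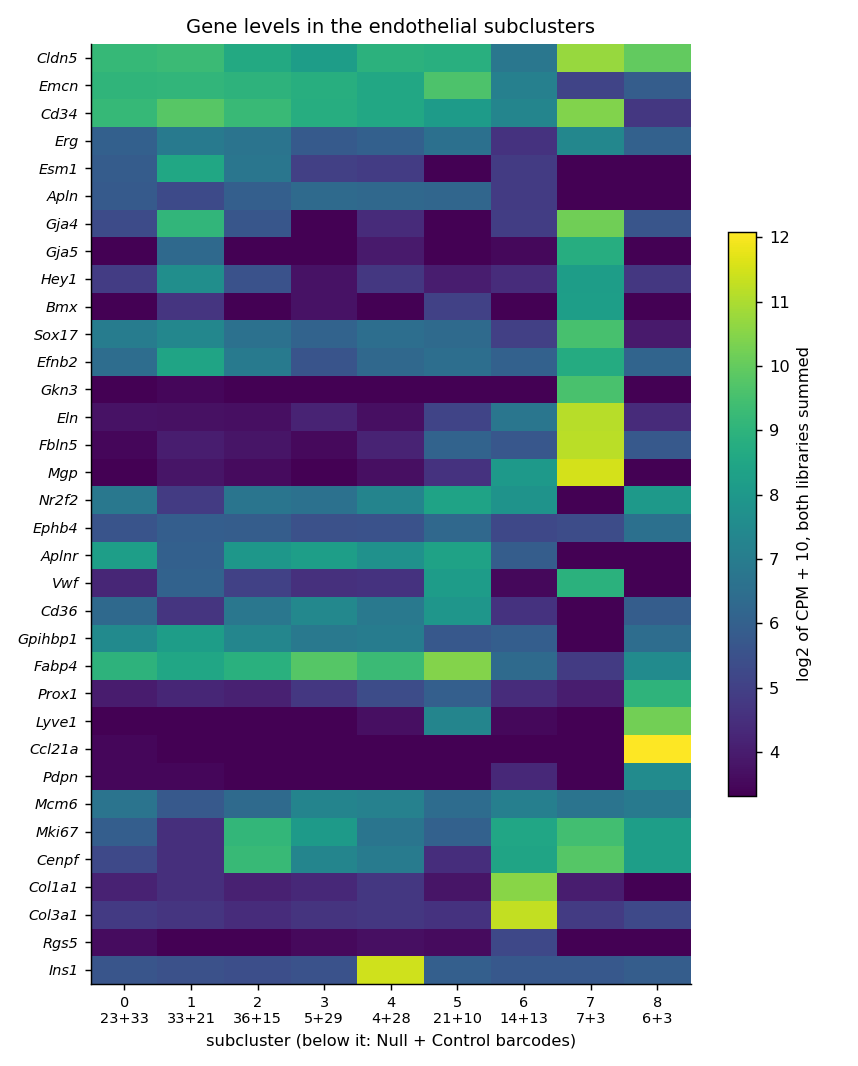
Level of selected genes (rows) in the 9 endothelial subclusters (columns; Null + Control barcodes below each number), as log2 of CPM + 10 with both libraries summed, on the color scale. Arterial genes stand out in subclusters 1 and 7, lymphatic genes in 8, Fabp4 and Cd36 in 5, Mki67 in 2 and 7, and collagens in 6.

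Between the libraries, most genes differed little. Of the 8630 genes with at least 50 UMIs, 146 (1.69%) were at least 2-fold higher and 57 (0.66%) at least 2-fold lower in Null endothelial barcodes, and the median log2 ratio was 0.09. The counting interval lay above 0 for 1519 genes (17.6%) and below 0 for 733 (8.49%), which are the shares that each list below is read against. Lists of abundant genes have narrower intervals, so smaller ratios exclude 0 in them, and these shares are not matched for level. The typical reach of an interval to 1 side was 0.12 for imprinted growth genes and 0.52 for Wnt genes. Without the collagen-rich barcodes, 117 of 8128 genes (1.44%) were at least 2-fold higher and 68 (0.837%) at least 2-fold lower. The lists were chosen with earlier results of these data known, so their counts and medians are descriptions.

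**Figure D3:**
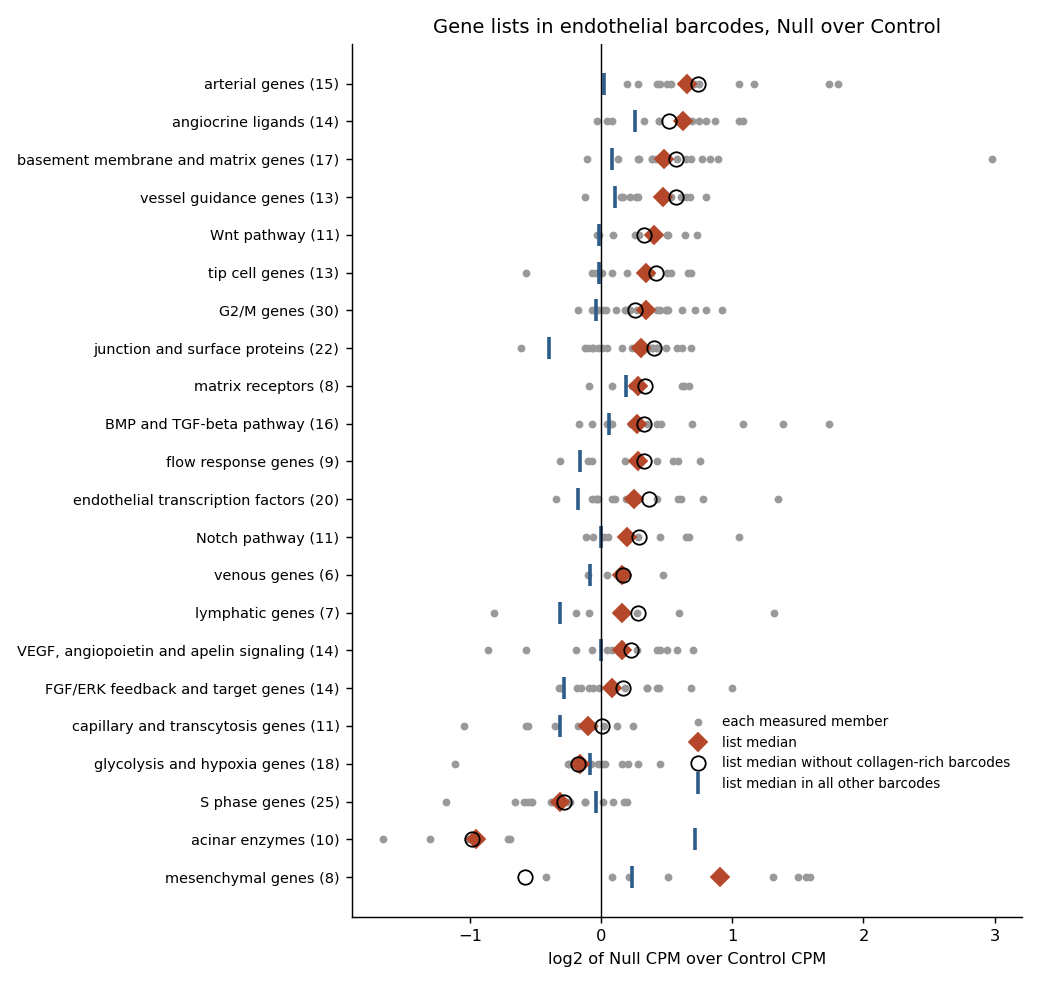
Log2 of Null over Control CPM in endothelial barcodes (x axis) for the measured members of 22 gene lists (rows, number measured in brackets): grey points are genes, diamonds list medians, open circles medians without collagen-rich barcodes and blue ticks medians in all other barcodes. The arterial list has the highest median of the endothelial lists, at 0.66, and its tick, from mostly epithelial barcodes, lies at 0.02. The mesenchymal median moves from one side of 0 to the other without collagen-rich barcodes.

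Arterial genes stood out in the Null endothelium. All 15 measured members had ratios above 0, 13 had intervals above 0 against 17.6% of all genes, and 4 were at least 2-fold higher; the median log2 ratio was 0.66, and 0.74 without collagen-rich barcodes. In all other barcodes, 13144 of them epithelial, the same genes had a median of 0.02. Mural and mesenchymal barcodes, counted per barcode below, showed a gap as well. Gja4 (GRCm38 chromosome 4, 127311421 to 127314039, minus strand) had 580 UMIs and 166 CPM in Null and 236 UMIs and 102 CPM in Control, a log2 ratio of 0.71 (0.49 to 0.94). Gja5 (chromosome 3, 96904693 to 97077416, plus strand) had 108 UMIs and 31.0 CPM in Null and 32 UMIs and 13.8 CPM in Control, a ratio of 1.17 (0.59 to 1.79). Both encode connexins that couple arterial endothelial cells.

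Among regulators and ligands of arterial fate, the same order held. Hey1 had 65.1 CPM in Null and 40.9 CPM in Control, a log2 ratio of 0.67 (0.32 to 1.03). Sox17, a transcription factor required for arteries, had 117 CPM in Null and 87.4 CPM in Control (0.43, 0.18 to 0.68), and its ratio in all other barcodes was -0.92. Efnb2, the ephrin that marks arteries, had 153 CPM in Null and 97.8 CPM in Control (0.65, 0.42 to 0.88). Jag1, a Notch ligand, had 34.7 CPM in Null and 16.8 CPM in Control (1.05, 0.52 to 1.61). Bmx, a tyrosine kinase of large arteries, and Tmem100, a transmembrane protein induced by BMP signaling, had the highest ratios, 1.81 (0.90 to 2.83) and 1.74 (0.79 to 2.82), on 12 and 11 Control UMIs. The ligand Dll4 and the receptor Notch4 had ratios of 0.20 and 0.29 with intervals that included 0.

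Part of the genes of capillaries and transcytosis were lower. Of 11 measured members, 5 had intervals below 0, against 8.49% of all genes, and 1 an interval above 0, and the median was -0.10, or 0.01 without collagen-rich barcodes. Fabp4, a fatty acid carrier of capillary endothelium, had 427 CPM in Null and 635 CPM in Control, a log2 ratio of -0.57 (-0.68 to -0.47). In all other barcodes its ratio was -1.86, on levels of 1.41 CPM in Null and 5.12 CPM in Control. Cd36, which takes up fatty acids, had 71.7 CPM in Null and 106 CPM in Control (-0.56, -0.82 to -0.30). The water channel Aqp1 had 25.3 CPM in Null and 52.1 CPM in Control (-1.04, -1.46 to -0.64), and Cavin2, a coat protein of caveolae, a ratio of -0.35 (-0.47 to -0.23). Gpihbp1 and Cav1, a lipase anchor and the main caveolar protein, had ratios of -0.10 and -0.06 with intervals that included 0. Rgcc, a cell cycle regulator, was the member that was higher, at 0.25 (0.08 to 0.41).

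**Figure D4:**
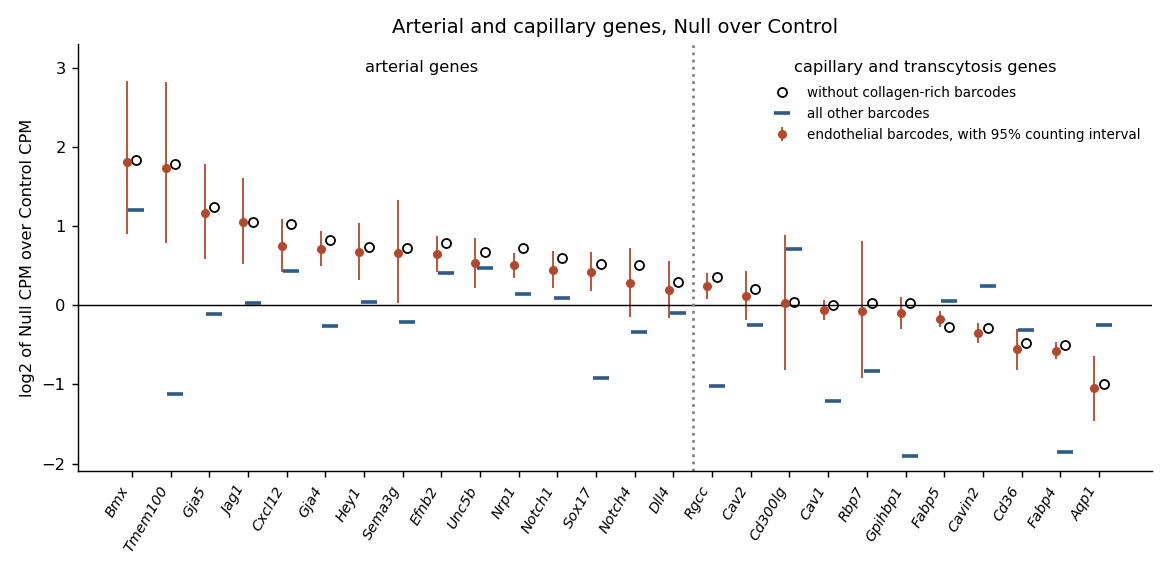
Log2 of Null over Control CPM (y axis) for the 15 measured arterial genes (left) and 11 capillary and transcytosis genes (right) in endothelial barcodes with 95% counting intervals, without collagen-rich barcodes (open circles) and in all other barcodes (blue dashes). All arterial points lie above 0, from 0.20 for Dll4 to 1.81 for Bmx, and capillary points run from 0.25 for Rgcc to -1.04 for Aqp1.

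The arterial genes were concentrated in subclusters 1 and 7, which held 40 of the 149 Null and 24 of the 155 Control barcodes. Their summed level there was 3343 CPM in Null and 2850 CPM in Control, a log2 ratio of 0.23 (0.12 to 0.34). In the barcodes outside subclusters 1, 6 and 7, it was 715 CPM in Null and 493 CPM in Control, a ratio of 0.54 (0.42 to 0.66), with 11 of 12 members of at least 20 UMIs above 0. Taken singly, these subclusters had ratios of 0.19 (subcluster 0), 0.27 (2), -0.30 (3), 0.30 (5) and -0.11 (8). Only subcluster 4 exceeded the pooled ratio, at 1.05 on 4 Null barcodes. The libraries differ in how their barcodes spread over these subclusters, and the part of that in the pooled ratio was not tested. Over all subclusters but 6, the summed ratio was 0.73 (0.65 to 0.81). The ratio within the arterial-like subclusters was thus smaller than over these barcodes. When subclusters 0 and 1, those with at least 20 barcodes in each library, were weighted alike, the list median was 0.18, and the ratios of Gja4, Hey1 and Unc5b lay below 0, at -0.076, -0.35 and -0.035.

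Counted per barcode after thinning to 2000 UMIs, 52 of 149 Null barcodes (34.9%, 27.3 to 43.1) and 36 of 155 Control barcodes (23.2%, 16.8 to 30.7) had at least 3 UMIs of the 16 arterial genes. Without collagen-rich barcodes the shares were 36.6% in Null and 22.5% in Control. In epithelial barcodes, which should lack most of these genes, they were 3.14% in Null and 2.19% in Control, with median depths of 30506 and 21744 UMIs before thinning. The endothelial intervals of the libraries overlapped. Among mural barcodes the shares were 31.7% (26.6 to 37.1) in Null and 19.4% (15.8 to 23.4) in Control, and among mesenchymal barcodes 34.0% (26.6 to 42.0) in Null and 11.2% (7.99 to 15.1) in Control, so a gap of this kind was also seen outside endothelium. At least 3 tip cell UMIs were found in 28.2% of Null and 18.7% of Control endothelial barcodes, against 1.57% and 1.39% of mural barcodes. The venous list showed a gap of similar size, with at least 3 UMIs in 20.8% (14.6 to 28.2) of Null and 11.6% (7.03 to 17.7) of Control endothelial barcodes, 19.7% and 6.93% of mural barcodes and 1.01% and 1.06% of epithelial barcodes. The lymphatic list reached 3 UMIs in 8 Null barcodes (5.37%) and 3 Control barcodes (1.94%).

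**Figure D5:**
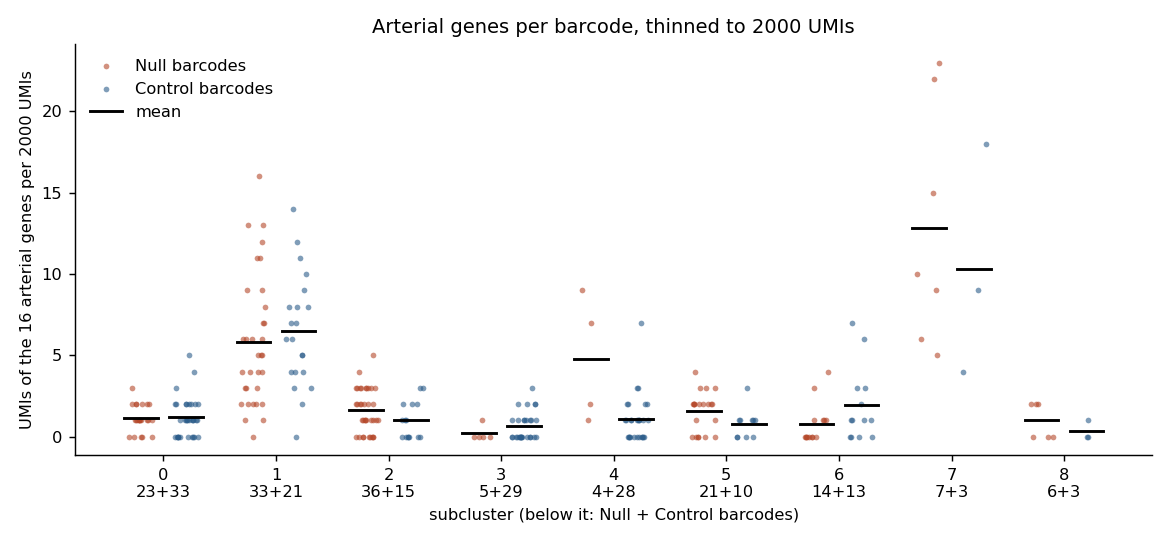
UMIs of the 16 arterial genes per barcode after thinning to 2000 UMIs (y axis) by subcluster (x axis), Null barcodes left and Control barcodes right in each, black bars showing means. Subclusters 1 and 7 stand above the rest in both libraries; the means in subcluster 1 are 5.82 in Null and 6.48 in Control, and in subcluster 7 they are 12.9 and 10.3.

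Genes of the artery wall were among those with the largest ratios, also without collagen-rich barcodes. Eln, which encodes elastin (chromosome 5, 134702593 to 134747323, minus strand), had 119 CPM in Null and 19.4 CPM in Control, a log2 ratio of 2.62 (2.17 to 3.09), or 2.61 without those barcodes. Fbln5, a fibulin of elastic fibers (chromosome 12, 101746565 to 101819055, minus strand), had 105 CPM in Null and 39.2 CPM in Control, a ratio of 1.42 (1.09 to 1.77), or 1.39 without them. Mgp, an inhibitor of calcification (chromosome 6, 136872435 to 136875823, minus strand), had 157 CPM in Null and 49.1 CPM in Control, a ratio of 1.67 (1.38 to 1.98). These values came from few cells. The 10 barcodes of subcluster 7 held 336 of the 414 Null and 25 of the 45 Control UMIs of Eln.

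For Fbln5, these barcodes held 302 of 366 Null UMIs and 72 of 91 Control UMIs. Gkn3, a secreted gastrokine known from arterial endothelium, had 106 UMIs and 30.4 CPM in Null and 16 UMIs and 6.89 CPM in Control (2.14, 1.38 to 3.00), and 105 of the Null and all 16 Control UMIs stood in subcluster 7. Within subcluster 7 itself, over 7 Null and 3 Control barcodes, Eln stood at 2853 CPM in Null and 577 CPM in Control and Fbln5 at 2564 and 1663 CPM. In all other barcodes, Mgp had a ratio of 1.08, Eln 0.51 and Fbln5 -0.37. Eln stood there at 12.1 CPM in Null and 8.46 CPM in Control, so Mgp and Eln were higher in Null outside the endothelium as well.

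The other genes at the top of the ranking rested on the collagen-rich barcodes. By the rule for named genes, the first 12 higher in Null were Upk3b, Eln, Igfbp5, Zfhx4, Plxna4, Col3a1, Mgp, Gkn3, Dcn, Col1a1, Col1a2 and Fbln5. Upk3b, a uroplakin of the mesothelium, had 37.3 CPM in Null and 0.861 CPM in Control (4.85, 3.55 to 8.50), and no UMI in either library without the collagen-rich barcodes. Igfbp5, which binds insulin-like growth factors, had 206 CPM in Null and 40.5 CPM in Control (2.35, 2.03 to 2.67), and -1.496 without them. For Col3a1, Dcn, Col1a1 and Col1a2, fibrillar collagens and a proteoglycan of connective tissue, the ratios of 1.31 to 1.59 became -0.93 to -0.43. Zfhx4 and Plxna4, a zinc finger factor and a semaphorin receptor, had ratios of 0.66 without them, with intervals that included 0. Ranked without these barcodes, the first 12 were Ins1, Eln, Mgp, Gkn3, Eogt, Ccl21a, Fbln5, Hist1h3c, Pmepa1, Kif2c, Itprid2 and Cgnl1, of which 4 were shared with the first ranking.

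Of those, Ins1, an insulin gene foreign to endothelium, stood at 307 CPM in Null and 53.4 CPM in Control over all endothelial barcodes (2.52, 2.25 to 2.80), and its ratio was -0.59 without called doublets. Pmepa1, induced by TGF-beta, stood at 140 CPM in Null and 61.0 CPM in Control without the collagen-rich barcodes, a ratio of 1.20 (0.91 to 1.499). Cgnl1, a junction scaffold protein, stood at 64.3 CPM in Null and 26.6 CPM in Control (1.27, 0.83 to 1.73), and Eogt, which glycosylates Notch receptors, at 80.0 and 27.6 CPM (1.53, 1.11 to 1.98). All of the alternatives kept Pmepa1, Cgnl1 and Eogt above 0.

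Venous and lymphatic genes were counted in the same way. Of 6 measured venous genes, 1 had an interval above 0, near the 17.6% of all measured genes, and the median was 0.16. Nr2f2 had 127 CPM in Null and 114 CPM in Control (0.16, -0.06 to 0.39), and Aplnr, the apelin receptor of veins, 193 CPM in Null and 186 CPM in Control (0.05, -0.13 to 0.22). Ephb4, the receptor that pairs with Efnb2, was the higher one, with 51.4 CPM in Null and 37.0 CPM in Control (0.47, 0.09 to 0.86). Of 7 lymphatic genes, 2 had intervals above 0 and the median was 0.16, or 0.28 without collagen-rich barcodes. Ccl21a had 176 CPM in Null and 70.6 CPM in Control (1.32, 1.07 to 1.57), all but 1 of its UMIs in the 6 Null and 3 Control barcodes of subcluster 8. Prox1 had 34.4 CPM in Null and 22.8 CPM in Control (0.59, 0.12 to 1.09), but stood at 134 and 136 CPM in all other barcodes, since pancreatic epithelium expresses it too. Lyve1 had 46.5 CPM in Null and 53.0 CPM in Control (-0.19, -0.54 to 0.16). In the venous-like subcluster 5 it had 72 Null UMIs and 1 Control UMI, against 88 and 122 in the lymphatic-like subcluster 8.

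Of 22 junction and surface proteins, 14 were higher and 1 lower by their intervals, with a median of 0.30, or 0.40 without collagen-rich barcodes; in all other barcodes the same genes had a median of -0.40. Cldn5, with a log2 ratio of 0.01 (-0.10 to 0.12), and Emcn, with -0.03 (-0.14 to 0.09), had intervals that included 0. Podxl, an anti-adhesive sialomucin of the lumen, had 88.7 CPM in Null and 55.1 CPM in Control (0.69, 0.38 to 0.99). Jam2, a junctional adhesion molecule, was the member that was lower, with 29.6 CPM in Null and 45.2 CPM in Control (-0.61, -1.02 to -0.21).

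Of 20 measured endothelial transcription factors, 9 were higher and none lower by their intervals, with a median of 0.25, or 0.37 without collagen-rich barcodes. Ets1 had 323 CPM in Null and 211 CPM in Control (0.61, 0.46 to 0.77). Foxc1, a forkhead factor known to act upstream of arterial genes, had 18.7 CPM in Null and 7.32 CPM in Control (1.35, 0.56 to 2.21), on 17 Control UMIs. Erg had a ratio of 0.28 (-0.01 to 0.58). The flow-induced factors split: Klf4 had 90.7 CPM in Null and 60.3 CPM in Control (0.59, 0.30 to 0.89), and Klf2 had 216 and 227 CPM (-0.07, -0.24 to 0.09).

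VEGF, angiopoietin and apelin genes differed in both directions, with 6 of 14 measured members higher and 2 lower by their intervals and a median of 0.16, or 0.23 without collagen-rich barcodes. Flt1, the decoy VEGF receptor, had 467 CPM in Null and 341 CPM in Control (0.45, 0.33 to 0.58), and Nrp1, a VEGF co-receptor, 306 and 216 CPM (0.50, 0.35 to 0.66). Apln, the apelin peptide of sprouting tip cells, was lower, with 37.0 CPM in Null and 55.1 CPM in Control (-0.57, -0.94 to -0.21). Vegfa itself had 24 Null UMIs and 29 Control UMIs (-0.86, -1.70 to -0.03). Vegfc, the lymphatic growth factor, had 37.0 CPM in Null and 22.8 CPM in Control (0.70, 0.23 to 1.19). Of 13 measured tip cell genes, 7 were higher and 1 lower, with a median of 0.34; Esm1 had 108 CPM in Null and 85.3 CPM in Control (0.34, 0.09 to 0.60).

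Notch, Wnt and BMP genes were higher in part. Of 11 Notch genes, 4 were higher and none lower, Jag1, Jag2, Hey1 and Notch1, with a median of 0.20. The general target Hes1 had 391 CPM in Null and 377 CPM in Control (0.05, -0.07 to 0.18). Of 16 BMP and TGF-beta genes, 6 were higher and none lower, among them Smad6, a feedback inhibitor of BMP signaling, with 16.9 CPM in Null and 6.46 CPM in Control (1.39, 0.55 to 2.31). Of 11 Wnt genes, 4 were higher and none lower, among them the transcription factor Lef1, with 27.8 CPM in Null and 16.8 CPM in Control (0.73, 0.18 to 1.30). Of 13 guidance genes, 7 were higher and none lower, with a median of 0.47, led by the ephrin Efna1 with 167 CPM in Null and 96.0 CPM in Control (0.80, 0.57 to 1.03).

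The series concerns an FGF ligand, so FGF receptors and response genes were counted in the endothelium. Fgfr1 was the receptor that passed 50 UMIs, with 144 UMIs and 41.3 CPM in Null and 61 UMIs and 26.3 CPM in Control (0.65, 0.21 to 1.11). Fgfr2, Fgfr3 and Fgfr4 had 13, 10 and 1 Null UMIs and 14, 4 and 5 Control UMIs. Of 14 FGF and ERK response genes, 3 had intervals above 0, near the 17.6% of all measured genes, and none below. On each side of 0 lay 7 ratios, with a median of 0.08, against -0.28 in all other barcodes. Without collagen-rich barcodes, 11 of these ratios lay above 0 and 3 below, with a median of 0.17. Spry4, a feedback inhibitor of ERK signaling, had 49.9 CPM in Null and 24.98 CPM in Control (1.00, 0.56 to 1.45). Dusp6, the phosphatase that shuts ERK off, had 81.8 CPM in Null and 64.3 CPM in Control (0.35, 0.06 to 0.65).

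Of 17 basement membrane genes, 15 were higher and none lower in Null by their intervals, with a median of 0.48, or 0.57 without collagen-rich barcodes, against 0.09 in all other barcodes. Col4a1 and Col4a2, the chains of the vessel's network collagen, had 1212 and 603 CPM in Null and 926 and 496 CPM in Control, ratios of 0.39 (0.31 to 0.46) and 0.28 (0.18 to 0.39). The laminin chains Lama4 and Lamc1 had ratios of 0.77 (0.55 to 0.99) and 0.83 (0.60 to 1.06), and Nid2, which links laminin to collagen, 0.69 (0.44 to 0.94). Col4a5 had the highest ratio, 2.98 (1.79 to 4.47), on 71 Null and 6 Control UMIs, and 0.57 without collagen-rich barcodes. Of 8 matrix receptors, 4 were higher and none lower; the integrin Itgb1 had 752 CPM in Null and 473 CPM in Control (0.67, 0.57 to 0.77), with 0.39 in all other barcodes.

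Ligands by which vessels signal to their surroundings showed a median of 0.63, with 10 of 14 members higher and none lower, or 0.52 without collagen-rich barcodes. Cxcl12, the chemokine that attracts cells bearing Cxcr4, had 74.6 CPM in Null and 44.4 CPM in Control (0.75, 0.42 to 1.09). Kitl, the ligand of the Kit receptor, had 229 CPM in Null and 168 CPM in Control (0.44, 0.27 to 0.62). Igf2, an imprinted growth factor, had 954 CPM in Null and 627 CPM in Control (0.60, 0.51 to 0.69), with a ratio of 0.51 in all other barcodes as well.

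Fewer genes met the rule for named genes as lower in Null endothelium, 606 against 1324 as higher. Of the first 12, 10 were shared with the ranking without collagen-rich barcodes, against 4 of the first 12 higher ones. The 12 were Plpp2, Gm525, Chaf1b, Rpl29, Aqp1, Tmem37, Meox2, Ankrd37, Ccne2, Rps2, Madcam1 and Snhg15. Plpp2, a lipid phosphatase (chromosome 10, 79526430 to 79533796, minus strand), had 16.6 CPM in Null and 44.4 CPM in Control (-1.41, -1.90 to -0.94). Meox2, a homeobox factor of endothelium (chromosome 12, 37108540 to 37179534, plus strand), had 21.2 CPM in Null and 44.8 CPM in Control (-1.08, -1.53 to -0.63). Madcam1, an adhesion molecule that lymphocytes bind (chromosome 10, 79664559 to 79668537, plus strand), had 82.9 CPM in Null and 140 CPM in Control (-0.75, -0.99 to -0.52), against a ratio of 0.25 in all other barcodes. Rpl29 and Rps2, ribosomal protein genes whose reads may be split with near-identical copies, had ratios of -0.79 and -0.61, and -0.85 and -0.48 in all other barcodes. The ranking without collagen-rich barcodes held Mif and Hacd1 in place of Ccne2 and Madcam1.

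Cell cycle genes split by phase. Of 25 S phase genes, 11 were lower and none higher in Null by their intervals, with a median of -0.31, against -0.04 in all other barcodes. Chaf1b, a histone chaperone of replicating DNA, had 22.4 CPM in Null and 50.8 CPM in Control (-1.18, -1.61 to -0.76), and Mcm6, a subunit of the replicative helicase, 73.5 and 116 CPM (-0.66, -0.91 to -0.40). Of 30 G2/M genes, 20 were higher and none lower, with a median of 0.34, or 0.26 without collagen-rich barcodes, against -0.04 in all other barcodes. Mki67 had 301 CPM in Null and 196 CPM in Control (0.62, 0.46 to 0.78), and Cenpf, a kinetochore protein, 313 and 165 CPM (0.92, 0.76 to 1.10). The G2/M median was -0.37 without dividing barcodes, those with more than 17 UMIs of the S phase and G2/M lists after thinning to 2000 UMIs. The same genes set that filter, so this value gives no check of the difference. The subclusters led by such genes held 36 Null and 15 Control barcodes (subcluster 2, mitotic genes) and 5 Null and 29 Control barcodes (subcluster 3, histone and replication genes). Summed over both subclusters, S phase genes stood at 1964 CPM in Null and 2071 CPM in Control, a log2 ratio of -0.08 (-0.17 to 0.01). Within subcluster 2 they stood at 1911 CPM in Null and 1286 CPM in Control, a ratio of 0.57 (0.42 to 0.72). The S phase median was -0.07 with subclusters 0 and 1 weighted alike. G2/M genes had a summed ratio of 0.23 (0.19 to 0.27) over both subclusters and of -0.05 within subcluster 2. The share of barcodes with an Mki67 or Top2a UMI counts dividing cells without separating the phases, so it cannot show this split. After thinning to 2000 UMIs it was 36.9% (29.2 to 45.2) in Null and 38.1% (30.4 to 46.2) in Control. Expected over all draws of 2000 UMIs it was 39.3% in Null and 39.6% in Control. Before thinning it was 72.5% in Null and 72.9% in Control. In hormone-rich barcodes, most of which should not divide, it was 7.17% in Null and 16.8% in Control after thinning, at median depths of 21495 and 14113 UMIs.

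Stress and metabolic genes were counted last. Of 15 measured immediate early genes, which dissociation is known to induce, 10 were higher and none lower in Null, with a median of 0.30, or 0.18 without collagen-rich barcodes, against 0.20 in all other barcodes. Egr1 had 218 CPM in Null and 133 CPM in Control (0.71, 0.52 to 0.90), and Atf3 had 141 and 68.0 CPM (1.06, 0.79 to 1.32). In all other barcodes their ratios were 0.32 and 0.58. Summed over the immediate early list, the ratio was 1.37 in the collagen-rich subcluster 6. It was 0.30 in subcluster 0, 0.23 in 4, 0.49 in 5 and 0.21 in 7. Below 0 lay subclusters 1 (-0.01), 2 (-0.28), 3 (-0.94) and 8 (-0.52). Of 18 glycolysis and hypoxia genes, 6 were lower and none higher, with a median of -0.16; Gapdh had 795 CPM in Null and 946 CPM in Control (-0.25, -0.33 to -0.17), with -0.24 in all other barcodes.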

How the data were processed

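Single-cell 3′ libraries of embryonic pancreas were made with the 10x system, 1 for each genotype group. The deposited values are raw counts of UMIs per gene and barcode, not normalized; the submitters' processing notes name bcl2fastq, Cell Ranger 6.1.1, Seurat 3.2.3 and build mm10. The endothelial members and all gene lists were chosen with earlier results of these data known. Counts were summed over a library's endothelial barcodes and divided by their total without mitochondrially encoded and haemoglobin genes to give CPM. Ratios are log2 of Null over Control CPM with exact conditional Poisson intervals, counts under 3 set to 3. The interval was checked on simulated Poisson counts. Such counts have no spread between barcodes, so this checks the calculation only. With both libraries at or under 3 counts no ratio was formed. Genes with at least 50 UMIs over both libraries were measured. Named genes needed 100 UMIs, 20 CPM in the higher library, an endothelial level of at least 50% of that in the other barcodes, and a ratio whose interval lay on 1 side of 0. The bound closer to 0 gave their order, and the first 12 in each direction were named, leaving out selection, mitochondrial, haemoglobin, X inactivation and Y-linked genes; members of the lists could be named as well, and the genes shown from the ranking without collagen-rich barcodes were chosen after their values were seen. Subclusters used 1500 variable genes, 15 principal components, 15 neighbors and Leiden resolution 1 (scanpy 1.11.5, leidenalg 0.10.2). Doublets called by Scrublet per library, 3.85% of Null and 9.28% of Control barcodes scored, were kept. Gene positions are GENCODE vM21 on GRCm38. Shares have exact Clopper-Pearson intervals. Other thresholds, thinning, weighting, scaling, doublet and free RNA settings were tried as alternatives, and the setting without collagen-rich barcodes and the dividing share expected over all draws were added after the data were seen.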

Additional observations from a re-analysis of the deposited data

How the results depend on the processing

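No paired analysis was possible because each group is 1 library. Of 402 list medians recomputed under alternatives, 368 moved by no more than the typical reach of their genes' intervals to 1 side, 20 moved further and 14 changed sign from a median larger than that reach. Counting medians of any size, 30 changed sign, in 15 lists. Of 1127 values of named genes, 934 stayed within their interval, 152 moved further and 41 changed sign from a ratio whose interval excluded 0; counting ratios of any size, 76 changed sign. The cause of these changes was not tested. Depth limits what can be seen: 1 UMI is worth 0.287 CPM in Null and 0.431 CPM in Control.

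Genes at least 2-fold higher in Null, 146 in the report, numbered 95 with at least 4 selection genes and 12 UMIs, 97 with the rule applied after thinning, 251 with every barcode weighted alike, 286 with free RNA subtracted, 64 with a minimum of 100 UMIs per gene, 553 with no minimum and 344 with subclusters weighted alike. Genes at least 2-fold lower, 57 in the report, numbered 102 after thinning, 86 with barcodes weighted alike, 30 with a minimum of 100 UMIs, 711 with none and 356 with subclusters weighted alike. The Control share of endothelial barcodes was 1.25% with the rule applied after thinning. The dividing share was 50.3% in Null and 58.5% in Control after thinning to 5000 UMIs, and 72.5% and 72.9% unthinned. A higher clustering resolution gave 16 subclusters.

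With subclusters weighted alike, medians within that reach also fell below 0, among them -0.16 for venous, -0.59 for lymphatic, -0.55 for sinusoidal and -0.15 for cholesterol synthesis genes. The G2/M median was -0.37 without dividing barcodes, a filter set on these same genes. It was -0.52 with subclusters weighted alike, where the imprinted median was -0.16. The epithelial median was 0.46 with free RNA subtracted. The mural median was -0.024 with at least 4 genes and 12 UMIs, -0.11 after thinning, -0.019 without dividing barcodes, -0.29 without collagen-rich barcodes, -0.27 with no minimum and -0.013 with subclusters weighted alike. The mesenchymal median was -1.44 with at least 4 genes and 12 UMIs, -0.87 after thinning, -0.58 without collagen-rich barcodes and -0.81 with subclusters weighted alike.

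With at least 4 genes and 12 UMIs, the log2 ratio of Igfbp5 was -2.14, of Zfhx4 -0.72, of Plxna4 -0.24, of Col3a1 -2.58, of Dcn -0.76, of Col1a1 -1.74 and of Col1a2 -1.33. With the rule applied after thinning, Upk3b had -3.02, Igfbp5 -2.39, Zfhx4 -0.24, Plxna4 -1.02, Col3a1 -1.28, Dcn -0.39, Col1a1 -0.88, Col1a2 -0.86 and Col4a5 -0.74. Without collagen-rich barcodes, Igfbp5 had -1.496, Col3a1 -0.60, Dcn -0.93, Col1a1 -0.43 and Col1a2 -0.70. Without dividing barcodes Cenpe had -0.11, and without called doublets Ins1 had -0.59. Weighting subclusters alike uses subclusters 0 and 1 alone. There, Igfbp5 had -2.74, Col3a1 -0.70, Dcn -0.97, Col1a1 -1.35, Col1a2 -0.91, Ins1 -0.75, Kif2c -0.74, Gja4 -0.076, Hey1 -0.35, Unc5b -0.035, Prox1 -0.40, Vegfc -0.16, Esm1 -0.10 and Cenpe -0.89, while Gm525 had 0.14, Ccne2 0.11, Apln 0.032 and Ldha 0.12.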

Other observations

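Imprinted growth genes all had ratios above 0 in Null endothelial barcodes, 8 of 10 with intervals above 0, at a median log2 ratio of 0.22, against -0.06 in all other barcodes. Without collagen-rich barcodes, 6 ratios lay above 0 and 4 below, with a median of 0.11. Mest, a hydrolase-like protein of growing embryonic tissue, had 1963 CPM in Null and 1724 CPM in Control (0.19, 0.13 to 0.24), while Dlk1, a Notch-related surface protein, had 260 CPM in Null and 171 CPM in Control (0.60, 0.43 to 0.78). H19, an imprinted noncoding RNA, had 1080 CPM in Null and 851 CPM in Control (0.34, 0.26 to 0.42).

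Flow response genes were higher in 4 of 9 cases and lower in none. Nos3, which makes nitric oxide in vessels, had 45.9 CPM in Null and 31.4 CPM in Control (0.55, 0.14 to 0.97), and S1pr1, a sphingosine phosphate receptor that steadies vessels, 126 and 93.9 CPM (0.42, 0.19 to 0.67). Heg1, a receptor needed for vessel integrity, had 69.2 CPM in Null and 40.9 CPM in Control (0.76, 0.41 to 1.12). Of 6 measured sinusoidal genes, 2 were higher. Maf, a transcription factor of sinusoidal and lymphatic endothelium, was one of them, with 46.5 CPM in Null and 28.0 CPM in Control (0.73, 0.31 to 1.17), but its ratio ran from -2.56 to 1.52 over the alternatives.

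Of 12 MHC class I and interferon genes, 4 were higher and 2 lower. Bst2, an antiviral membrane protein, had 104 CPM in Null and 124 CPM in Control (-0.26, -0.49 to -0.04). Of 15 cholesterol synthesis genes, 3 were higher and none lower, near the 17.6% of all measured genes that were higher. Of 8 measured Hox genes, positional factors of the body axis, 2 were higher and 1 lower, against 17.6% and 8.49% of all measured genes. The Hox median was 0.02, or -0.08 without collagen-rich barcodes, against -1.02 in all other barcodes.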
